A study of Mus musculus with 10 samples.

Results

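Collagens, laminins and the chains of their integrin receptors were taken as 1 set of genes, chosen by symbol alone among the protein-coding genes that RefSeq places on mm10 autosomes. The set held 78 of 20665 genes, of which 42 encode collagen chains, 11 laminin chains and 25 integrin chains. In the peak lists of the series, 503 of 76694 open regions had one of these genes as the nearest coding gene within 100 kb, and 74 of the 78 genes had at least 1 such region. The genes without one were Col10a1, a network collagen of growth cartilage, and the leukocyte integrin chains Itgad, Itgam and Itgax. The farthest region kept lay 97428 bp from Col1a2, and the nearest one left out lay 102929 bp from Itga6.

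The tissue was the epithelium of the mouse cochlear duct at E13.5, freed from its surroundings with dispase and collagenase I. ATAC-seq, which marks open chromatin by the insertion of a transposase, was made from 3 wildtype and 2 SoxC double knockout libraries, whose titles say whole organ although the protocol describes the epithelium. Binding of Sox4 was read by CUT&RUN, in which an antibody guides a nuclease to the bound DNA, with a guinea pig anti-Sox4 antibody from 3 replicates of wildtype p27kip1-GFP positive progenitors sorted by FACS, which the titles call ChIP. Nothing in the labels says whether the replicates are separate animals or pools, so p-values measure only the spread between these libraries. Which genes were deleted is not named in the labels, nor are the sex and the number of embryos per library, and a Pax2cre SoxC fl/fl strain is given for the single-cell knockout library only, whose table pairs no rows with gene names and was not used here.

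The cochlear duct stands on a basement membrane, a sheet in which laminin trimers of an alpha, a beta and a gamma chain polymerise and are joined to a network of type IV collagen. Epithelial cells hold on to this sheet through integrins, receptors made of 1 alpha and 1 beta chain that span the plasma membrane. Fibrillar and fibril-associated collagens form fibrils in connective tissue and cartilage, and in the inner ear types II, IX and XI are also known from the tectorial membrane, the sheet above the hair cells.

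Peak lists hold no reads per region, so chromatin was compared by rank. Overlapping peaks of a library were merged and ranked by their deposited -log10 p, with rank 1 the strongest and tied peaks sharing the best rank. The wildtype lists held 145099 to 173032 merged autosomal peaks and the knockout lists 192810 and 208902. At rank 50000 the -log10 p was 8.75 to 19.0 in wildtype, against 50.5 and 104 in knockout, so the same rank stood for a much more significant peak in a knockout list. The 50000 strongest peaks were 437 to 499 bp wide in wildtype by their median and 615 and 699 bp in knockout. Peak calling, depth and genotype therefore cannot be told apart in absolute values, and "lower" or "higher" below always means the place of a region within its own library. Gene ends of a blood, endothelium and macrophage marker list had no peak for 3 or 4 of 8 genes in every library, among them Csf1r and Cx3cr1 in all 5. Other genes of the list did have open regions. Gene-end peaks of 2 of the 8 were among the 50000 strongest in each wildtype library. A region inside Ptprc ranked 19251, 25512 and 12819 in wildtype, against 89369 and 95119 in knockout.

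The promoters of 6 genes are shown first, because their start sites passed the test for a rank difference between the genotypes. A region was fitted with limma on log2 rank if it was among the 50000 strongest peaks of at least 1 library and overlapped a peak in all 5 lists. It was called at a Benjamini-Hochberg adjusted p under 0.05 over all 61353 regions fitted. For the fit, regions were ranked anew among those fitted, so differences and folds refer to these new ranks. The ranks printed beside them are those of the full lists. Over a start site, 34 regions of these genes were fitted. Those of Col11a1, Itgb8, Itga8 and Itgav were lower in knockout (11.8%, against 13.2% of all 10027 regions over a start site), and those of Col23a1 and Lamb2 were higher (5.88%, against 17.3%). The Itgb8 region over the start came from a summit window of knockout replicate 1 only. The sequences are the 250 bases before the start site, 5′ to 3′ on the coding strand, from the RefSeq promoter table of GRCm38.p6 (mm10), which held 55 of the 78 genes. Capitals mark exact matches on either strand to the SOX core words ACAAAG and ACAATG and to the GC box GGGCGGG. They lie at chr3:114030290-114030539 (Col11a1, plus strand), chr12:119238277-119238526 (Itgb8, minus strand), chr2:12301945-12302194 (Itga8, minus strand), chr2:83724147-83724396 (Itgav, plus strand), chr11:51289670-51289919 (Col23a1, plus strand) and chr9:108479612-108479861 (Lamb2, plus strand).
Col11a1: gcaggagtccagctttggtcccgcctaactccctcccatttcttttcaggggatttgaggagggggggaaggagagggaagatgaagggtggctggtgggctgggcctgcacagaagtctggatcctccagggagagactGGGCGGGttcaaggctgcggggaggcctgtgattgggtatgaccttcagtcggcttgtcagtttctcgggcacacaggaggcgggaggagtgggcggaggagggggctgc
Itgb8: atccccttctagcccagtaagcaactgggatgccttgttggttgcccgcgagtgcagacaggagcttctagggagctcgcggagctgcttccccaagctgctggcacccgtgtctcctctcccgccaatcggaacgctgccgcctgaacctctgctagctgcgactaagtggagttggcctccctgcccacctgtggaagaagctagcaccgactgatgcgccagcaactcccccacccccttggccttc
Itga8: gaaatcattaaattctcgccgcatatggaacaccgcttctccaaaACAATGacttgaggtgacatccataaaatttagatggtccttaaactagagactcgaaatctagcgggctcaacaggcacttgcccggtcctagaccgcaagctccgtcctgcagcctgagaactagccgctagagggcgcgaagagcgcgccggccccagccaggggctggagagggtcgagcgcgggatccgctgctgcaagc
Itgav: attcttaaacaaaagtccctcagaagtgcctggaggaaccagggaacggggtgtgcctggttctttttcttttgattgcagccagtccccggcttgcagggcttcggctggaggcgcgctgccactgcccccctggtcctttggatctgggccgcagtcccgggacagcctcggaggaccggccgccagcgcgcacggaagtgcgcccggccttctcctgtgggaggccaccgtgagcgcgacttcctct
Col23a1: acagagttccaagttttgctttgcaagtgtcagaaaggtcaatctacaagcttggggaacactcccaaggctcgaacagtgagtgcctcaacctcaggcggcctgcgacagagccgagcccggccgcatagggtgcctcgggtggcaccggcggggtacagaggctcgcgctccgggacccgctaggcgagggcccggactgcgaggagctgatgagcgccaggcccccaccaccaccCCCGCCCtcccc
Lamb2: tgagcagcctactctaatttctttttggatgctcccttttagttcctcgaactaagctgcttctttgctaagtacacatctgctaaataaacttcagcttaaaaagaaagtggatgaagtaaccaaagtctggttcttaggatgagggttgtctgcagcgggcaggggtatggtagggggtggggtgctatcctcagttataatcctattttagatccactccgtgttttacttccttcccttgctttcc

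The 4 promoters of the lower start sites held 1 GC box (Col11a1) and 1 ACAATG (Itga8) between them, and none held ACAAAG. Itgb8, whose start site was the only one of the 4 with a Sox4 site, held none of these words in the window. The GC content of the 250 bases was 62.4% at Col11a1 and Itgb8, 56.4% at Itga8, 64.4% at Itgav, 66.0% at Col23a1 and 43.6% at Lamb2. Over the 61 promoters of the set, counted over 250 bases before to 50 bases after the start, ACAAAG or its reverse CTTTGT stood in 7 (11.5%, against 18.6% of 31396 promoters in the table). ACAATG or CATTGT stood in 2 (3.28%, against 12.2%), those of Col28a1 and Itga8. The longer word AACAAAG or CTTTGTT, whose matches are also matches to ACAAAG, stood in 2 (3.28%, against 5.80%). The GC box GGGCGGG or CCCGCCC stood in 21 (34.4%, against 25.8%). Members' promoters had a median GC content of 58.8%, against 52.4% over the table, so these shares are not set at equal base composition.

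The first comparison between genotypes asked how many regions of the set ranked differently in knockout. Of 370 regions fitted, 37 were lower in knockout (10.0%, against 9.85% of all regions fitted) and 30 were higher (8.11%, against 10.7%). The shares are near those of all regions, and nothing is read from them as particular to the set. The 37 lower regions rested on 36 distinct peaks, since 2 regions at Itgb8 share 1 merged peak. The median difference was 0.08 on the log2 rank scale (knockout minus wildtype, positive where the rank was weaker in knockout), against 0.03 over all regions. A lower region was called at 20 of the 78 genes (25.6%, against 15.8% of all genes) and a higher one at 25 (32.1%, against 24.1%). These shares per gene also depend on how many regions a gene has. Of the set, 3 genes (Itga8, Itgav and Lama3) had both, and 36 genes had no call. Without wildtype replicate 2, lower calls numbered 18 (5.17% of all regions were then lower) and higher calls 10 (4.15% of all regions). Calls also fell without either knockout library, in the set as over all regions, but 1 knockout library then stands alone. Of the calls with all 5 libraries, 55.2% were lower, against 48.0% of the calls over all regions. That share was 73.6% on normal scores of the rank, where 8.23% of all regions were lower and 4.90% higher. It was 36.7% when peaks were ranked by fold enrichment, where 7.79% of all regions were lower and 9.18% higher.

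**Figure D1:**
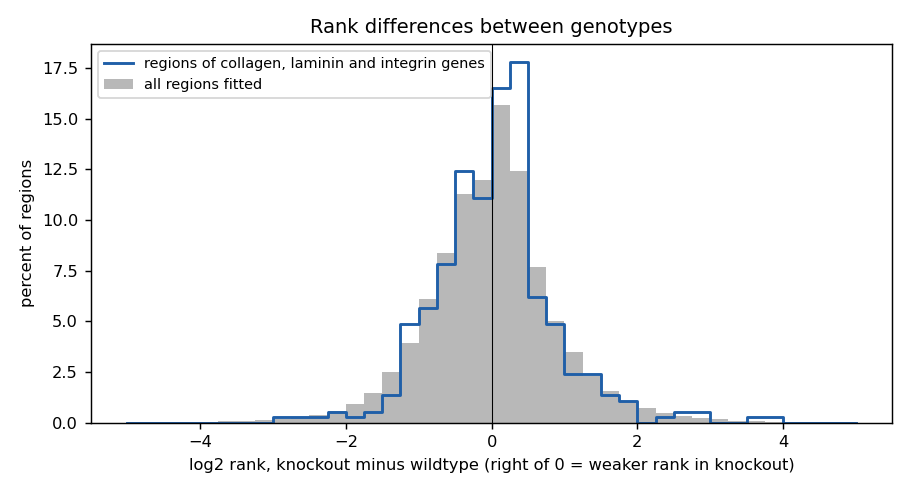
Difference in log2 rank between knockout and wildtype (x axis) against the percent of regions in each bin (y axis). Grey bars are all 61353 regions fitted and the blue line the 370 regions of collagen, laminin and integrin genes. Both distributions centre near 0, with medians of 0.03 and 0.08.

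Lower calls differed in share with the length of the gene. Regions of genes over 150 kb were lower in 20 of 101 cases (19.8%, against 12.3% for all genes of that length), those of genes of 50 to 150 kb in 17 of 200 (8.50%, against 9.73%), and those of genes under 50 kb in 0 of 69 (against 7.16%). Higher calls ran the other way, with 10 of 69 (14.5%), 15 of 200 (7.50%) and 5 of 101 (4.95%), beside 16.2%, 9.66% and 5.45% for all genes. More than 100 kb from either gene end, 9 of 29 regions were lower (31.0%, against 11.1% for all genes), and these lay in Lama2, Col25a1 and Col22a1. Within 1 kb of a gene end, 7 of 69 were lower (10.1%, against 12.3%) and 3 were higher (4.35%, against 16.7%). These shares are descriptions and were not tested, and regions of 1 gene are not independent of each other.

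**Figure D2:**
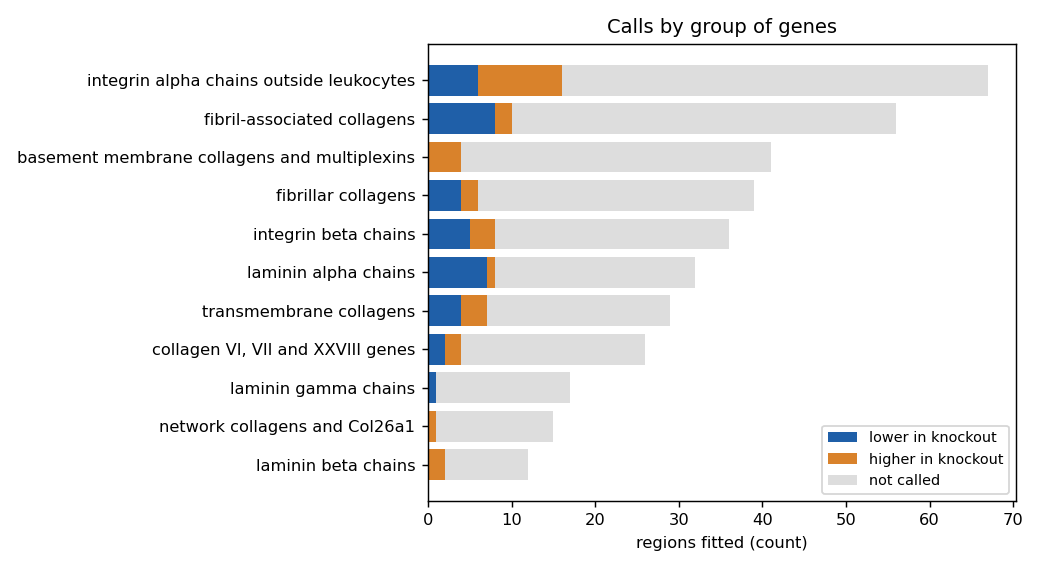
Number of regions fitted (x axis) in each group of genes (y axis), split by call. Laminin alpha chains had 7 lower calls and 1 higher call among 32 regions, and basement membrane collagens had 4 higher calls and no lower call among 41. Over all regions fitted, 9.85% were lower and 10.7% higher.

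The counts by group that follow stand beside 9.85% lower and 10.7% higher over all regions fitted, and no group was tested. Among the collagens that form fibrils, 4 of 39 regions were lower and 2 were higher. The start site of Col11a1, an alpha chain of type XI collagen, which sits in the core of thin fibrils of cartilage and of the tectorial membrane, was among the most open places of the wildtype libraries (chr3:114030171-114030704). Its ranks were 52, 78 and 37 in wildtype, against 1477 and 328 in knockout, without overlap. The difference was 3.75 (SE 0.61) on the log2 rank scale, (limma adjusted p = 0.00866). Its -log10 p was 507, 335 and 301 in wildtype, against 828 and 815 in knockout, so the peak itself was strong in both genotypes, and many others had overtaken it in the knockout lists. On normal scores of the rank the adjusted p was 0.0635. A pair of further regions near the start of Col11a1 were also lower, by the same test. One at 1170 bp from the start ranked 26819, 20056 and 15599 in wildtype, against 79354 and 60064 in knockout (1.32, SE 0.29, adjusted p = 0.0196). The other, 5993 bp from the start, ranked 28119, 10891 and 13138 against 51158 and 50246 (1.46, SE 0.40, adjusted p = 0.0403). Both were wildtype-only in the sense given below.

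Col27a1, a fibrillar collagen of cartilage, had 1 lower region at its gene end, ranked 10197, 7441 and 12852 in wildtype, against 29379 and 29215 in knockout (1.52, SE 0.29, adjusted p = 0.0131). The higher calls were in Col2a1 and beside Col1a1, the main chains of cartilage and of bone collagen. A region inside Col2a1 ranked 7198, 11954 and 20262 in wildtype, against 2299 and 2992 in knockout (-2.15, SE 0.42, adjusted p = 0.0140). That direction depended on the score, since ranking by fold enrichment gave 0.56 (adjusted p = 0.401). The call was also lost on normal scores (adjusted p = 0.0765) and without wildtype replicate 2 or knockout replicate 1 (adjusted p = 0.0526 and 0.103). Beside Col1a1, a region 2020 bp beyond the gene ranked 19430, 31178 and 56649 against 10162 and 9058 (-1.62, SE 0.38, adjusted p = 0.0253). It was not called on normal scores (-1.12, adjusted p = 0.103), by fold enrichment (adjusted p = 0.0606) or without wildtype replicate 2, knockout replicate 1 or knockout replicate 2 (adjusted p = 0.0761, 0.124 and 0.109). Neither Col1a2, the partner chain of Col1a1, nor Col11a2, the partner of Col11a1, had a call, and none of the 4 regions of Col11a2 could be fitted because each lacked a peak in at least 1 list. The start-site peak of Col1a2 ranked 30416, 24037 and 22353 in wildtype, against 45855 and 47590 in knockout, without overlap but short of the threshold (0.72, SE 0.24, adjusted p = 0.0748).

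Fibril-associated collagens, which decorate fibrils without forming them, had 8 lower and 2 higher regions among 56. Col12a1, found in dense connective tissue and cell-rich matrix, held 3 of the lower ones. The one nearest a gene end, at 329 bp, ranked 13362, 11660 and 11164 in wildtype, against 73244 and 45665 in knockout (1.93, SE 0.24, adjusted p = 0.00452), with an adjusted p of 0.0501 without knockout replicate 1. Col19a1 and Col22a1 had 2 lower regions each and Col14a1 had 1, all with differences between 0.82 and 1.67. Col16a1 and Col20a1 had 1 higher region each. At Col20a1 a region 856 bp from the start had ranks of 21790, 60630 and 48107 against 10721 and 7935 (-1.94, SE 0.39, adjusted p = 0.0161). That call was lost by fold enrichment (-0.98, adjusted p = 0.220), on normal scores (adjusted p = 0.0666) and without wildtype replicate 2, knockout replicate 1 or knockout replicate 2 (adjusted p = 0.0559, 0.0734 and 0.0798). The type IX chains Col9a1, Col9a2 and Col9a3, which coat type II fibrils, had 17 regions between them and no call. The start-site peak of Col9a1 was one of the strongest of the set, with ranks of 2413, 1207 and 1748 in wildtype, against 3983 and 2409 in knockout. The best peaks at a gene end of Col9a3 (15377, 14783 and 12980 against 16255 and 11528) and at the start of Col9a2 (26417, 37361 and 35832 against 41830 and 29285) overlapped between genotypes.

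Transmembrane collagens, which are anchored in the plasma membrane, had 4 lower and 3 higher regions among 29. All 4 lower ones lay in Col25a1, a 419527-bp gene of a collagen known from neurons and muscle, between 106736 and 208784 bp from the nearer gene end. Their differences ran from 1.16 to 1.49. The start site of Col23a1 was called higher, with ranks of 37606, 39302 and 36254 in wildtype, against 11433 and 18229 in knockout (-1.28, SE 0.27, adjusted p = 0.0175). Col13a1 had the other 2 higher regions (-1.18 and -1.03). Of the collagen VI, VII and XXVIII genes, Col28a1 had 2 lower regions, and Col6a1 and Col6a3 had 1 higher region each. The one downstream of Col6a3 ranked 46111, 56520 and 69125 in wildtype, against 9906 and 7331 in knockout (-2.46, SE 0.25, adjusted p = 0.00281). Among the network collagens, Col8a2 had 1 higher region of 15 fitted in the group.

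Basement membrane collagens and multiplexins had no lower call and 4 higher ones among 41 regions. Col4a1 and Col4a2, the chains of the common type IV network, start back to back from 1 shared peak. It ranked 15848, 29433 and 21995 in wildtype, against 38972 and 37237 in knockout, without overlap but without a call (0.72, SE 0.30, adjusted p = 0.124). Downstream of Col4a1, 32396 bp beyond the gene, lay a very strong region that was called higher, with ranks of 1057, 1313 and 1498 in wildtype, against 317 and 534 in knockout (-1.64, SE 0.31, adjusted p = 0.0130). Ranked by fold enrichment it went the other way (1.87, adjusted p = 0.0885), and the call was lost on normal scores (adjusted p = 0.176) and without knockout replicate 1 (adjusted p = 0.125). A second region downstream of Col4a1 was also higher (-1.12, SE 0.31, adjusted p = 0.0396). In Col18a1, the multiplexin that carries endostatin, a region inside the gene ranked 48378, 60630 and 69125 against 18416 and 18661 (-1.40, SE 0.23, adjusted p = 0.00844), a call lost without either knockout library (adjusted p = 0.0867 and 0.0509). Its start-site peak (23830, 33638 and 36093 against 45854 and 43429) was not called (0.42, SE 0.26, adjusted p = 0.285). Col15a1 held the only knockout-only region of the set that was also called higher (-0.91, SE 0.23, adjusted p = 0.0298).

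Laminin alpha chains, which carry the sites that integrins bind, had 7 lower calls and 1 higher call among 32 regions, with a median difference of 0.50 (0.03 over all regions). Lama2, the alpha chain of muscle and nerve laminin and the longest gene of the set at 635907 bp, held 4 of them. The largest, at chr10:27086489-27086996, ranked 7273, 1964 and 3385 in wildtype, against 45629 and 66485 in knockout (3.61, SE 0.50, or 12.2-fold in rank number, adjusted p = 0.00560). Unlike the Col11a1 start site, it was also less significant in absolute terms in knockout replicate 2, with -log10 p of 138, 143 and 83.7 in wildtype, against 120 and 29.4 in knockout. A Sox4 peak of replicate 2 lay over it at rank 626, with none in the other replicates. The next, at chr10:27177318-27177852, ranked 8003, 7723 and 6073 against 56723 and 99737 (2.81, SE 0.25, adjusted p = 0.00223). The third, at chr10:27197731-27198258, ranked 6303, 3648 and 1676 against 25701 and 21949 (2.80, SE 0.50, adjusted p = 0.0112), with an adjusted p of 0.0747 without knockout replicate 1. One more region of Lama2, 20173 bp from a gene end, ranked 18360, 13767 and 8101 in wildtype and had no peak in either knockout list, so it could not be fitted.

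The other lower calls of this group were in Lama4, a chain of endothelial and mesenchymal laminin, and in Lama1 and Lama3. The Lama4 region ranked 14000, 22489 and 17037 in wildtype, against 164167 and 150180 in knockout (1.77, SE 0.27, adjusted p = 0.00698). Lama1, the chain of early embryonic basement membranes, had a lower region inside the gene (35916, 17543 and 13311 against 72650 and 76632, 1.37, SE 0.40, adjusted p = 0.0490), while the strong peak at its gene ends ranked 5610, 3228 and 5900 against 8695 and 8031. Lama3, the chain of epithelial laminin-332, was lower at a region 270 bp from a gene end (14396, 13210 and 12429 against 33746 and 30865, 1.22, SE 0.23, adjusted p = 0.0126) and higher at another (-1.03, SE 0.25, adjusted p = 0.0288). Lama5, the main alpha chain of mature epithelial basement membranes, had no call. Its start-site peak ranked 11396, 17051 and 19956 in wildtype, against 30144 and 18434 in knockout, with overlap between the genotypes (0.58, SE 0.33, adjusted p = 0.241).

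The beta and gamma chains complete the laminin trimer. Of 12 beta chain regions, 2 were higher, the start site of Lamb2 (37665, 37914 and 44344 against 14971 and 17061, -1.21, SE 0.23, adjusted p = 0.0132) and a region inside Lamb1 (32146, 21687 and 44460 against 15310 and 12121, -1.11, SE 0.32, adjusted p = 0.0479). The start-site peak of Lamb1 ranked 36291, 46123 and 30304 in wildtype, against 50613 and 46102 in knockout (0.25, SE 0.25, adjusted p = 0.510). Of 17 gamma chain regions, 1 inside Lamc1 was lower (23418, 29684 and 22491 against 68054 and 47694, 0.90, SE 0.25, adjusted p = 0.0401). The peak at the gene ends of Lamc1, the gamma chain of most laminins, was strong and overlapped between genotypes, with ranks of 8669, 9891 and 11645 against 12641 and 5990.

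**Figure D3:**
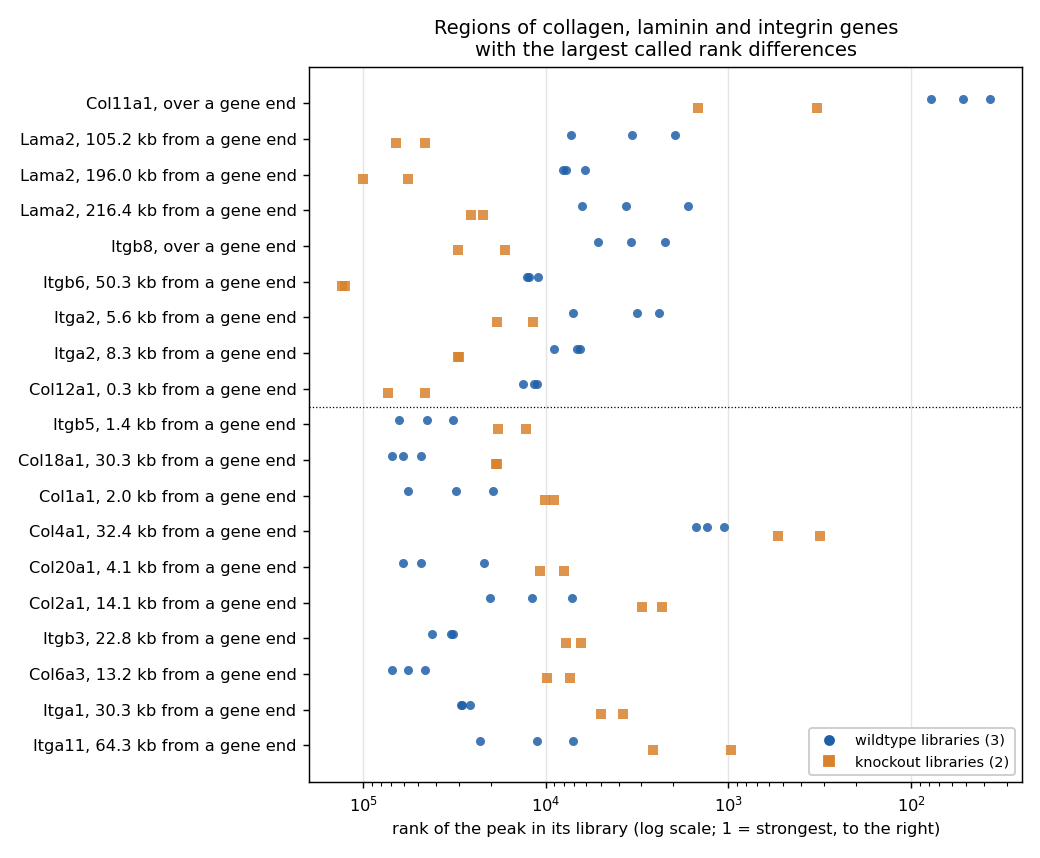
Rank of the peak in each library (x axis, log scale, strongest to the right) for the regions with the largest differences (y axis, gene and distance to the nearer gene end), above the dotted line lower in knockout and below it higher. Blue circles are the 3 wildtype and orange squares the 2 knockout libraries. The genotypes do not overlap in any row, which the choice of rows by their called difference favours. The Col11a1 start site spans ranks 37 to 1477, and the Itgb6 region 11055 to 131167.

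Integrin alpha chains outside the leukocyte group had 6 lower and 10 higher regions among 67. Itga8 and Itgav, both of which bind matrix proteins with an RGD motif, were lower at their start sites. That of Itga8 ranked 7874, 4341 and 2676 in wildtype, against 18338 and 12043 in knockout (1.75, SE 0.45, adjusted p = 0.0326). That of Itgav ranked 6941, 5237 and 4307 against 19146 and 12031 (1.52, SE 0.31, adjusted p = 0.0169). Each of these genes also had a higher region inside the gene, with ranks of 51895, 30124 and 36490 against 21045 and 15455 at Itga8 (2.0-fold smaller rank number, adjusted p = 0.0479) and of 53782, 56520 and 34345 against 24570 and 20506 at Itgav (-0.94, SE 0.27, adjusted p = 0.0473).

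Itga1, Itga2 and Itga11 encode collagen-binding chains. Itga2 had 2 lower regions, one ranked 6514, 9032 and 6761 in wildtype, against 29980 and 30134 in knockout (1.98, SE 0.25, adjusted p = 0.00448) and the other 7064, 3181 and 2414 against 18484 and 11791 (1.99, SE 0.46, adjusted p = 0.0242). The second call was lost on normal scores (adjusted p = 0.0743) and without wildtype replicate 2, wildtype replicate 3 or knockout replicate 1 (adjusted p = 0.0813, 0.0572 and 0.164). By fold enrichment both were lost (adjusted p = 0.0749 and 0.0865). Itga1 and Itga11 had higher regions upstream. The one 30346 bp upstream of Itga1 ranked 29069, 28875 and 26060 in wildtype, against 4975 and 3789 in knockout (-2.62, SE 0.24, or 6.15-fold in rank number, adjusted p = 0.00232). The one 64321 bp upstream of Itga11 ranked 7099, 11166 and 22823 against 966 and 2592 (-2.91, SE 0.56, adjusted p = 0.0139), and a second one upstream of Itga11 was also higher (-1.05, SE 0.29, adjusted p = 0.0430). The call on the first was lost by fold enrichment (-0.90, adjusted p = 0.314), on normal scores (adjusted p = 0.0621), without wildtype replicate 2 (adjusted p = 0.0513) and without knockout replicate 1 (adjusted p = 0.0972). Start-site peaks of Itga1 and Itga2 were not called (adjusted p = 0.106 and 0.645).

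Itga3 and Itga6 encode the laminin-binding chains of epithelia. Itga3 had 2 higher regions inside the gene (-1.12 and -0.94, adjusted p = 0.0442 and 0.0416), and its start-site peak overlapped between genotypes (17976, 16747 and 15299 against 16032 and 22790). The peak at the gene ends of Itga6 was strong in all 5 libraries, with ranks of 5554, 7976 and 13003 in wildtype, against 8336 and 5621 in knockout. One region 36336 bp outside Itga6 was lower, ranked 12223, 21326 and 19386 against 55904 and 65345 (1.48, SE 0.29, adjusted p = 0.0151). Itga4, which binds fibronectin, had 1 lower region 2825 bp upstream (34409, 17332 and 21774 against 81575 and 94610, 1.24, SE 0.32, adjusted p = 0.0329). Itga9 had 2 higher regions and Itga5 had 1. The 5 leukocyte chains had 2 regions between them, both knockout-only and neither fitted, and none had a start-site or gene-end peak among the 50000 strongest of any library.

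Integrin beta chains had 5 lower and 3 higher regions among 36. Itgb8, which pairs with the alpha V chain to bind latent TGF-beta, was lower at its start site (chr12:119237876-119238376). This region came from the summit window of knockout replicate 1 alone, and the wildtype summits lay in the part just upstream. Both parts share 1 merged peak, which ranked 5175, 2237 and 3437 in wildtype, against 30352 and 16634 in knockout, without overlap (2.70, SE 0.41, adjusted p = 0.00694). Its -log10 p was 167, 135 and 83.1 in wildtype, against 205 and 188 in knockout, and its fold enrichment 10.3, 11.5 and 8.61 against 8.32 and 9.37. For the part of the peak just upstream, at chr12:119238580-119239110, the adjusted p was 0.0942 when ranked by fold enrichment (1.14) and 0.0566 without knockout replicate 1 (2.30). Inside the gene the strong peak about 10 kb from the start, at 10221 bp in wildtype replicate 1, ranked 9663, 3013 and 2916 in wildtype, against 8673 and 7111 in knockout, with overlap, and its region was not called (0.88, SE 0.52, adjusted p = 0.264).

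Itgb6, the other TGF-beta-binding partner of the alpha V chain in epithelia, had 3 lower regions inside the gene. One ranked 12601, 12418 and 11055 in wildtype, against 131167 and 124991 in knockout (2.28, SE 0.22, adjusted p = 0.00271), with -log10 p of 91.3, 48.3 and 40.0 against 14.0 and 7.92. A Sox4 peak of replicate 2 lay over it, at rank 6002. The start-site peak of Itgb6 ranked 29327, 33648 and 35493 against 40888 and 30072. Higher calls were made at Itgb3 (33088, 42120 and 32382 against 6387 and 7784, -2.24, SE 0.24, adjusted p = 0.00331), downstream of Itgb5 (32208, 64026 and 44584 against 12903 and 18236, -1.38, SE 0.30, adjusted p = 0.0192) and inside Itgb4, the hemidesmosome chain (-0.94, SE 0.23, adjusted p = 0.0290). The Itgb5 call was lost on normal scores (adjusted p = 0.0621) and without wildtype replicate 2 or knockout replicate 1 (adjusted p = 0.0601 and 0.171). The peak at the gene ends of Itgb4 ranked 25640, 37940 and 28894 against 19828 and 18923. Itgb1, the common beta chain of most matrix receptors, had no call. Its start-site peak was among the strongest of the set, at 1922, 2358 and 1762 in wildtype, against 4023 and 2042 in knockout (0.54, SE 0.33, adjusted p = 0.285).

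Peaks at start sites or gene ends were taken within 1 kb of the start site, or of either gene end for genes without a start in the promoter table. Among the 50000 strongest peaks stood those of 54, 50 and 50 of the 78 genes in wildtype and of 44 and 50 in knockout. In all 5 libraries together this held for 38 genes, and 9 genes had no such peak in any list. The same counts over all genes were not made, so nothing is read from these as particular to the set.

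**Figure D4:**
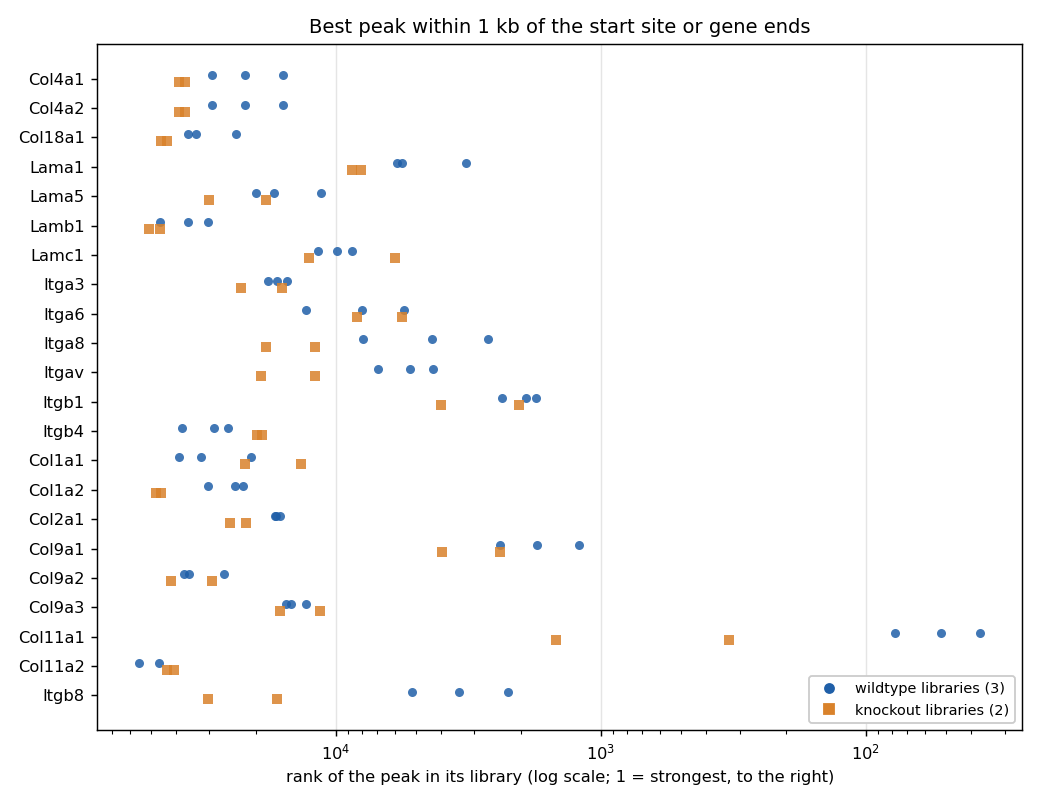
Rank of the best peak within 1 kb of the start site or gene ends (x axis, log scale, strongest to the right) for 22 genes of the set (y axis). Blue circles are wildtype and orange squares knockout libraries; Col11a2 has no such peak in wildtype replicate 3. The genotypes stand apart at Itgb8 (ranks 2237 to 5175 against 16634 and 30352) and overlap at Itga6 and Lamc1.

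A second comparison counted regions by presence among the 50000 strongest peaks, with each peak reduced to 250 bp on each side of its summit. Of the 503 regions, 32 were found in every wildtype library but neither knockout library (wildtype-only, 6.36%, against 6.65% of all regions). The reverse pattern, both knockout libraries and none of the wildtype (knockout-only), held for 58 (11.5%, against 7.75%), and 144 were in all 5 (shared, 28.6%, against 37.2%). The share of knockout-only regions was above that of all regions and the share of shared ones below it, and neither difference was tested. Wildtype-only regions fell in 24 genes (30.8%, beside 2685 of all 20665 genes) and knockout-only ones in 33 (42.3%, beside 4129 of all 20665). The complete lists of both knockout libraries held a peak at 30 of the 32 wildtype-only regions. Those of all 3 wildtype libraries held one at 13 of the 58 knockout-only regions. These counts are not alike, because the knockout lists are longer and a peak was needed in 2 lists in the first case and 3 in the second. The same counts over all regions of each class were not made. A peak was absent from every list of the other genotype for 1 wildtype-only region, in Lama2, and 5 knockout-only regions. These 5 lay in Col11a1, Col5a1 and Col9a3 (1 each) and at Itga6 (2).

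Wildtype-only regions were spread thinly, with 2 each at Col11a1, Col14a1, Col25a1, Col28a1, Col4a3, Itga6, Itgb6 and Lama2 and no more than 1 elsewhere. Of the 32, 15 were also called lower. One, 457 bp from an end of Itga3, overlapped a knockout peak ranked 16032 and 22790 whose summit lay elsewhere, so its class came from the summit windows. Knockout-only regions numbered 5 each at Col5a1 and Itga6 and 3 each at Col11a2, Col23a1, Col4a2 and Lamc3. At Col5a1, the chain that starts thin collagen fibrils, the 5 regions ranked 29449 to 36790 in knockout replicate 1 and 37367 to 44234 in knockout replicate 2. In wildtype they had at most 2 peaks each, at ranks of 50101 to 135429. At Itga6 they ranked 22444 to 33217 and 19215 to 39003 in knockout, with wildtype peaks, where present, between 69125 and 128847. Only 1 of the 58 was called higher, the Col15a1 region given above, and 45 of them could not be fitted because at least 1 wildtype list had no peak there.

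The third question was where Sox4 was bound. A Sox4 site was a place where windows of the 20000 strongest peaks of at least 2 of 3 replicates overlapped. Of 2117 sites, 6 lay at 5 of the 78 genes (6.41%, against 7.79% of all genes), a share near that of all genes. The genes were Itgb8 with 2 sites and Lamb1, Lamb3, Col23a1 and Itga9 with 1 each. Many Sox4 peaks had the same low score, and 16258 peaks of replicate 1 tied at the cut with a -log10 p of 6.16, so that 28782, 20012 and 26440 peaks were kept. With tied peaks left out 3 sites remained, with the 10000 strongest peaks 1, and with all deposited peaks there were 46. Replicate 1 was deposited with a second peak list, which was not used to define sites. In that list the peaks over the 6 sites ranked from 55626 (Itgb8 start) to 161667 (Col23a1), with 87606 at Lamb1. All lay outside its 20000 strongest, so the sites that rest on replicate 1 depend on the list used.

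Lamb1, the beta chain of most embryonic laminins, had the only site found in all 3 replicates (chr12:31306005-31306528, inside the gene and 40712 bp from its start). Its Sox4 ranks were 12525, 18442 and 6350, the first shared with the tied peaks. The ATAC peak there ranked 12295, 13521 and 24607 in wildtype, against 27042 and 16270 in knockout, with overlap between the genotypes. At the start of Itgb8 the Sox4 peak was strong in the replicate 1 list used, but ranked 55626 in the other list of that replicate. Its ranks were 1275, 34983 and 6247 and its fold enrichments 6.07, 3.34 and 3.07. Replicate 2 lay outside its 20000 strongest peaks, but its summit was at nearly the same place. The summits lay 230, 241 and 190 bp into the gene from the start site, within the wildtype ATAC peak of 1583, 1568 and 1590 bp that was lower in knockout. The strongest ATAC summit was 565, 554 and 559 bp upstream of the start in wildtype and 584 bp upstream in knockout replicate 2, and 150 bp inside the gene in knockout replicate 1. The printed promoter of Itgb8 lies in the gap between the Sox4 and ATAC summits, not the summits themselves. Replicate 2 had a further Sox4 peak 627 bp upstream of the start, at rank 19901.

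**Figure D5:**
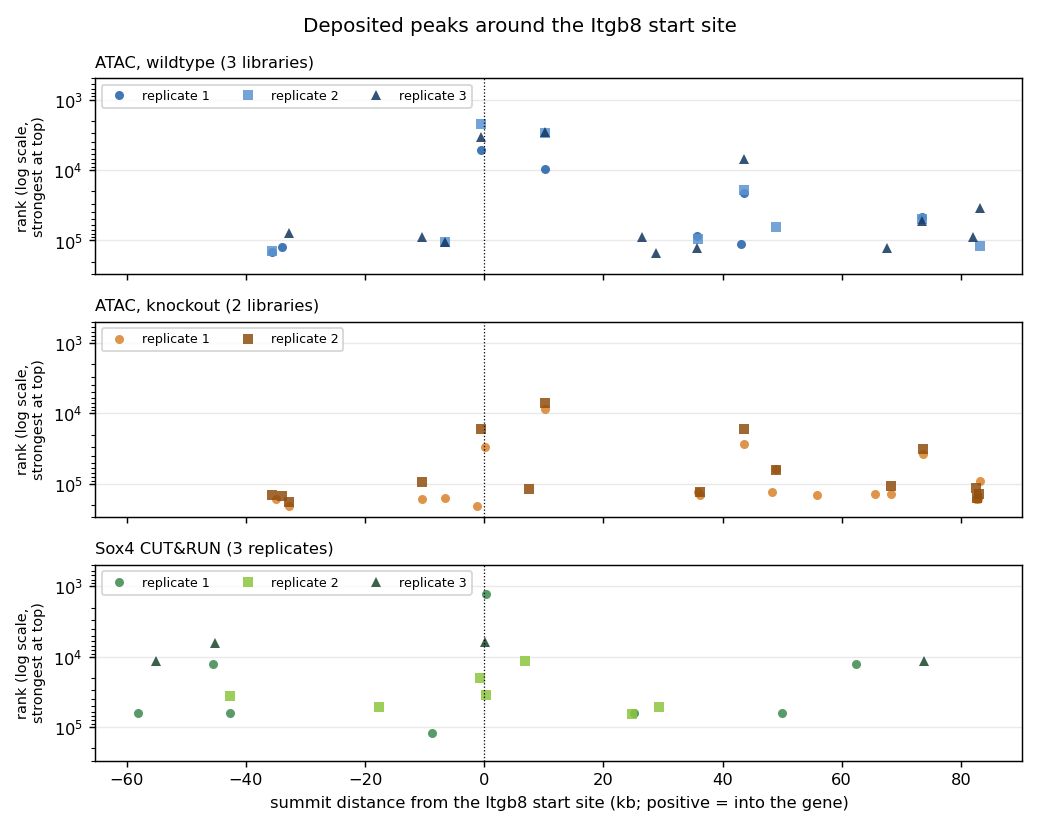
Distance of each deposited peak's summit from the Itgb8 start site (x axis, kb, positive into the gene) against its rank (y axis, log scale, strongest at the top) in wildtype ATAC (top), knockout ATAC (middle) and Sox4 CUT&RUN (bottom). At the start site the ATAC peak stands at 2237 to 5175 in wildtype and at 16634 and 30352 in knockout. About 10 kb into the gene, a peak stands at 2916 to 9663 in wildtype and at 8673 and 7111 in knockout.

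The other 4 sites were in 2 replicates each. The second Itgb8 site, 44897 bp upstream, ranked 12525 in replicate 1 and 6350 in replicate 3, and sites upstream of Lamb3 (6002 in replicate 2 and 11471 in replicate 3) and inside Col23a1 (12525 in replicate 1 and 11927 in replicate 2) likewise had no peak in the third list. None of these 3 overlapped an ATAC peak in any of the 5 lists, as was so for 37.5% of all Sox4 sites. The site inside Itga9 (12525 in replicate 1 and 18962 in replicate 3, both shared ranks) lay over an ATAC peak that ranked 57084, 76209 and 76896 in wildtype, against 31677 and 36427 in knockout. Thus 2 of the 6 sites, at Lamb1 and at the Itgb8 start, overlapped one of the 50000 strongest peaks of every wildtype library, against 53.0% of all sites.

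In the full lists, which held 158444, 72417 and 38914 merged autosomal peaks, most of these genes had Sox4 peaks nearby. The share of all genes with such a peak was not counted, so the counts of genes are not read as particular to the set. Replicate 1 had 781 peaks near 75 of the 78 genes, replicate 2 had 331 near 65, and replicate 3 had 195 near 56. At 51 genes all 3 replicates had a peak, and 3 places overlapped in all 3, the Lamb1 site, the Itgb8 start and a place beside Itga6. The last ranked 55165, 35554 and 18962 and overlapped the region outside Itga6 that was lower in knockout. Peaks near the set made up 0.493%, 0.457% and 0.501% of the full lists and 0.497%, 0.430% and 0.533% of the strongest peaks, so they were about as frequent among strong peaks as among all.

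Of 49 other genes of the same pathway (basement membrane partners, collagen-modifying enzymes, integrin adaptors and matrix proteases), 198 regions were fitted. Lower in knockout were 19 of them (9.60%, against 9.85% of all regions fitted) in 12 of the 49 genes, beside 15.8% of all genes. Higher were 23 (11.6%, against 10.7%) in 18 of the 49 genes, beside 24.1% of all genes. Counts per gene also depend on how many regions a gene has. The shares of regions are near those of all regions, and the genes named next are examples. A region inside Fn1, which encodes fibronectin, ranked 4093, 4213 and 3396 in wildtype, against 20376 and 15329 in knockout (2.20, SE 0.25, adjusted p = 0.00354). Tnc, which encodes tenascin-C, had 2 lower regions (2.05 and 1.74), and Agrn, the heparan sulfate proteoglycan agrin, had 1 beside its end (1.55). A region inside Pxn, the integrin adaptor paxillin, ranked 48186, 140006 and 43496 against 4481 and 9288 (-2.84, SE 0.36, adjusted p = 0.00452). Adamts2, which trims procollagen, and Vcl, the adaptor vinculin, had 1 Sox4 site each, that of Vcl in all 3 replicates.

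Markers of other cell types were read in the same way, and their part in the results above was not tested. Epithelial markers had 0 lower and 5 higher regions of 29, prosensory markers 9 and 5 of 63, otic mesenchyme 3 and 0 of 31, spiral ganglion 4 and 2 of 22, glia and melanocyte 1 and 2 of 27, and blood, endothelium and macrophage 3 and 0 of 27. Over all regions fitted, 9.85% were lower and 10.7% higher. The gene-end peaks of the 6 epithelial markers had median ranks of 13900, 26500 and 25500 in wildtype, against 7840 and 8930 in knockout, and those of the 6 prosensory markers 7380, 7450 and 7970 against 14200 and 12200. The 7 placed mesenchymal markers had median ranks of 53800 to 67500 in wildtype, against 79200 and 73800 in knockout. Spiral ganglion markers showed the widest gap of the 6 lists, with median ranks of 16500, 20800 and 11900 against 67900 and 67400. This list has only 5 genes, of which 1 had no peak in wildtype replicate 2 and 1 none in wildtype replicate 3. In wildtype replicate 1 and both knockout libraries the median matched, rounded, the rank of 1 Tubb3 region (16532 against 67864 and 67352). Another Tubb3 region and 1 beside Neurog1 were called higher. Peaks of 3 of the genes stood among the 50000 strongest in each wildtype library and of 2 in each knockout library. For the 5 placed glia and melanocyte markers they were 2300, 4790 and 11900 against 2200 and 3190. For blood, endothelium and macrophage markers they were 65900, 53100 and 50800 against 74400 and 69100. Each median is over the genes with a peak. In unsorted tissue, fewer cells of a type and less open chromatin per cell cannot be told apart.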

How the data were processed

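The peak lists of 5 ATAC-seq and 3 Sox4 CUT&RUN libraries were analysed as deposited. Sox4 replicate 1 has a second deposited list, which was not used to define sites. Their columns hold a fold enrichment (a ratio) and a -log10 p-value and -log10 q-value per peak, as the authors' peak caller gave them, and MACS2 is named in the submitters' processing notes without a version. Reads per region are not in these files, so depth enters the values through the -log10 p and its effect on rank is unknown. Overlapping peaks were merged within a library, ranked by -log10 p with tied peaks sharing the best rank, and reduced to 250 bp each side of the summit. Windows of the 50000 strongest ATAC peaks per library, all ties at the cut included, were merged into regions and given to the nearest coding gene within 100 kb. Log2 rank, re-ranked among the regions fitted, was compared with limma 3.58.1 (R 4.3.3, two-sided, Benjamini-Hochberg over all 61353 regions fitted, threshold 0.05). Differences are therefore not those of the printed ranks, and can be much smaller where a printed rank lies beyond 61353. At the Lama4 region, printed ranks of 14000, 22489 and 17037 in wildtype and of 164167 and 150180 in knockout gave a fitted difference of 3.41-fold. Sox4 sites were windows of the 20000 strongest peaks in at least 2 of 3 replicates. Python 3.11.15, numpy 2.4.6, pandas 2.3.3 and scipy 1.17.1 were used, and the fit was tested on simulated data. Named with values were members with a Sox4 site, up to 10 per direction with the most genotype-only regions or the largest called differences, and a set list of main matrix chains and receptors whether called or not; other members were named to account for them. Members, marker lists, the partner list and the treatment of ties were chosen with earlier results of these data known. Alternatives were other cuts, scores, rank scales and regions, a replicate block, and leaving out each library. The 2 single-cell tables were not used because their rows carry no gene names.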

Additional observations from a re-analysis of the deposited data

How the results depend on the processing

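With the 25000 strongest peaks there were 21 wildtype-only and 34 knockout-only regions of the set, and with 100000 there were 49 and 92. Normal scores of the rank gave 14 higher calls (4.90% of all regions, against 10.7%), fold enrichment 18 lower calls (7.79% of all regions, against 9.85%), and placing absent peaks last 55 higher calls (11.7% of all regions), and the cause was not tested. Under fold enrichment the Col2a1 region reversed to 0.56 and the Col4a1 region 32396 bp downstream to 1.87. Sox4 sites numbered 1 with the 10000 strongest peaks, 46 with all deposited peaks, 1 when all 3 replicates were required, 2 at a -log10 q of at least 2, and 3 with ties at the cut left out, an alternative chosen after seeing the data.

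Leaving out 1 library at a time gave 5 to 40 lower calls, 3 to 26 higher calls, 37 to 52 wildtype-only regions (52 without wildtype replicate 3), 63 to 85 knockout-only regions and 2 to 4 Sox4 sites (2 without replicate 1 and 2 without replicate 3). Over all regions 1.38% were lower without knockout replicate 1, where the lone knockout library is assumed to vary like the others. Leaving out a library also loosens the rule for both classes and makes a Sox4 site need both remaining replicates. Class counts above the 32 and 58 of the main analysis, and site counts below its 6, therefore follow in part from the rules. With a replicate block there were 31 lower and 27 higher calls. The same-numbered pairs correlated at 0.096 and 0.071 in their deviations, with 2 pairs only, so they share a number and no pairing is known. Of 273 values of 20 single regions and genes, 236 kept direction and side of the threshold, 35 kept the direction only, and 2 reversed.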

Other observations

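The type IV chains Col4a5 and Col4a6, which form the network of some epithelial basement membranes, lie on the X chromosome and were left out above because the wildtype ATAC lists hold no peaks on it. In the knockout lists, Col4a6 had 19 peaks over the gene in replicate 1 and 14 in replicate 2, and Col4a5 had 9 in each. In the Sox4 lists, Col4a6 had 6, 3 and 0 peaks and Col4a5 6, 1 and 0. No comparison between genotypes can be made for these genes from these lists.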
